A study of Mus musculus with 12 samples.

Results

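Absorptive colonocytes, the surface cells of the large intestine that take up salt and water, were followed through 42 listed genes in mouse colonic organoids with and without the vitamin D receptor. A gene was taken into the set by its name on the list, and all probes whose accession mapped to that name were used. A probe was found for 41 of the 42 genes, and 36 passed the filter on dim probes and were tested among 24263 genes. The list holds 17 genes of salt and water transport, 9 of brush border structure and adhesion, 9 surface enzymes and nutrient handling proteins, and 7 genes of differentiation and steroid response. Ceacam1 was matched to no probe and was not analysed here.

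Sodium enters these cells through hydrogen exchangers and, under aldosterone, through the epithelial sodium channel, and it leaves through the basal sodium pump. Chloride is exchanged for bicarbonate, which carbonic anhydrases supply, and water follows through aquaporins. The apical side carries a brush border of actin-filled microvilli tied together by cadherins, on which enzymes such as alkaline phosphatase and meprin sit. These proteins appear as cells leave the crypt, so their transcripts are widely used as signs of differentiation. Calcitriol, written 1,25(OH)2D3, is the active hormone of vitamin D and acts through the receptor encoded by Vdr.

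The cultures were grown in Matrigel from colonic crypts of C57BL/6 mice, under conditions that favour stem cells, from 3 wild-type and 3 VDR KO mice. Organoids of each mouse received ethanol (EtOH), the vehicle, or 1,25(OH)2D3 at 100 nM, and the dose was repeated every 48 h. Treatment lasted 72 h by the series' design text and 62 h by the sample descriptions, so its length is uncertain. RNA of each culture, 100 ng, was hybridised to a 1-colour array, which gave 12 arrays in 4 groups of 3. Replicates 1 and 3 of both genotypes were labelled as 2 months old and replicate 2 as 3 months old. The labels name neither the deleted part of Vdr nor the cells that lack it, and no group contains mature colon tissue.

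Levels are log2 signals minus the 75th percentile of the array, which lay between 580.6 and 790.5 signal units, so a level of 0 is that percentile. They are compared between arrays and not between genes. At low signal 1 array differed from the rest: 72.8% of the spots of wild-type mouse 2 under vehicle were well above background, against 55.0% to 66.4% elsewhere. Vdr lay between 1.05 and 2.22 on the wild-type arrays and between -0.22 and 0.61 on the knockout arrays, and S100g, a calcium-binding vitamin D target, rose by 7.49 with calcitriol in wild type (adjusted p = 4.28e-10) and differed by 0.12 in knockout (adjusted p = 1). The Y-linked gene Ddx3y was at 0.82 to 0.99 on the 4 arrays of replicate 2, whose mice are labelled female. On all other arrays, including the 4 with male labels, it lay between -7.96 and -6.62. Those labels go against the data for replicates 1 and 2, and sex enters no comparison below. The 3 slides held 2, 3 and 7 arrays. The largest held 5 of the 6 calcitriol arrays (3 wild-type, 2 knockout) but only 2 of the 6 vehicle arrays, 1 per genotype, so slide and treatment overlap.

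All 6 epithelial markers, Epcam, Cdh1, Krt8, Krt18, Krt19 and Cldn7, were above background on all 12 arrays. None of the 6 fibroblast markers was above background on all 12, and Pdgfra and Lum were above background on none. The mean level of the 6 crypt stem markers, which include Lgr5 and Ascl2, was 1.65 to 2.00 in wild-type vehicle and 1.73 to 1.85 in its calcitriol counterpart. In knockout it was 1.82 to 2.45 with vehicle and 1.93 to 2.26 with calcitriol, so the calcitriol groups of the genotypes did not overlap. That mean includes Rgmb, a dim marker above background on 0 of 3 wild-type vehicle arrays and on 3 of 3 wild-type calcitriol arrays. Rgmb passed the filter only through that last group, and its wild-type difference was 1.19, against -0.99 for Smoc2. With the mouse as a block, 1 stem marker, Ascl2, and 1 of the 2 deep crypt secretory markers, Reg4, were called lower with calcitriol in wild type, with differences of -0.59 and -0.74 (adjusted p = 0.0339 and 0.0174). Kit, the other deep crypt secretory marker, differed by 0.87 there and was higher in all 3 mice, without a call. Of the 6 stem markers, 3 lay above 0 and 3 below in that comparison. Of the 6 markers of small intestinal enterocytes, 2 were above background on all 12 arrays, and their mean levels overlapped between all groups. In whole organoids, fewer cells of a type and less RNA per cell cannot be told apart.

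Goblet cell markers are given for the comparisons in which Mep1a and Alpi are called below. With calcitriol in wild type all 8 lay above 0, against 43.4% of all genes, with a median of 0.50. Of the 8, 6 were higher in all 3 mice, against 14.8% of all genes. With the block Spink4 (0.90, adjusted p = 0.0158) and Tff3 (0.63, adjusted p = 0.0114), a secreted trefoil peptide, rose there, where 0.635% of all genes were called higher. In knockout 4 of 8 lay above 0, against 55.3% of all genes, with a median of 0.01. For the wild-type minus knockout difference of these effects all 8 lay above 0, against 40.9% of all genes. Its median was 0.41, and none passed in either fit. Between knockout and wild type in calcitriol 0 of 8 lay above 0, against 54% of all genes, with a median of -0.51. Of the 8, 6 were lower at all 3 replicate numbers, against 13% of all genes, but none passed in either fit. Their mean level was 3.14 to 4.13 in wild-type vehicle, 3.64 to 4.45 in calcitriol-treated wild type, 3.08 to 4.11 in knockout vehicle and 3.41 to 3.95 in knockout calcitriol, and these ranges overlap.

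Lists that hold dim markers also separated groups. Above background on all 12 arrays were 3 of 6 immune and 2 of 3 endothelial markers, and none of the tuft or fibroblast markers. The mean of the 5 tuft markers with a probe, none above background on all 12 arrays, was -5.45 to -3.49 in wild-type vehicle, -5.56 to -5.28 in calcitriol-treated wild type, -6.17 to -5.49 in knockout vehicle and -5.11 to -4.83 in knockout calcitriol. Knockout vehicle lay below all other groups, except that it overlapped calcitriol-treated wild type, and the genotypes did not overlap in calcitriol. In vehicle the immune markers averaged -3.53 to -2.03 in wild type and -4.21 to -3.55 in knockout, and the fibroblast markers -5.95 to -4.54 and -6.35 to -6.08, both without overlap. The endothelial mean was -1.95 to -1.62 in vehicle and -2.34 to -2.03 in calcitriol in wild type, where Cdh5 was above background on 0 of the 6 arrays, and the 2 tested markers differed by 0.43 (Kdr) and -0.05 (Pecam1). The highest wild-type vehicle means given here, -3.49, -2.03, -4.54 and -1.62, are those of mouse 2, whose array differed from the rest at low signal. The knockout vehicle arrays of mice 1 and 2, alone on the smallest slide, had 55.0% and 55.7% of their spots well above background. What part low signal has in these separations was not tested. What part any of these lists has in the differences below was not tested either.

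All 36 tested genes were above background on all 12 arrays. The other 5 with a probe were dim. Scnn1b, a subunit of the epithelial sodium channel, was above background on 6 arrays, 2 of them wild-type vehicle, 1 wild-type calcitriol, 1 knockout vehicle and 2 knockout calcitriol. Scnn1g, another subunit of that channel, was above background on 0 arrays. Dpp4, a surface peptidase, was above background on 5 arrays, and Fabp1, a fatty acid carrier, and Apoa1, an apolipoprotein, each on 2. Levels in wild-type vehicle, where an array below background gives only a bound, averaged -4.10 ± 0.92 for Scnn1b, -6.62 ± 0.52 for Scnn1g, -4.81 ± 1.89 for Dpp4, -4.78 ± 2.15 for Fabp1 and -5.58 ± 1.56 for Apoa1 (SD, n = 3). No difference is given for these 5.

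Calcitriol was compared with vehicle in each genotype, to ask which absorptive genes respond to the hormone and whether the response needs its receptor. In the fit of 4 group means, none of the 36 genes passed in wild type, where 0.152% of all genes did, and none in knockout, where no gene did. The organoids given vehicle and calcitriol come from the same mouse, and with the mouse as a block 2 of 36 passed in wild type, both higher, against 0.915% of all genes called and 0.635% called higher. These were Mep1a and Alpi, both enzymes of the brush border. With the block 0 of 36 passed in knockout, where limma called no gene. In wild type, 17 of the 36 reached an unadjusted p below 0.05 with the block and 4 without it, against 9.97% and 4.7% of all genes. In knockout, 3 of the 36 reached an unadjusted p below 0.05 with the block and 1 without it, against 8.12% and 5.61% of all genes. The difference between the genotypes' effects was called for none of the 36 without the block, against 0.0289% of all genes, and with it for 1, Mep1a, which was higher, against 0.235% called and 0.218% called higher. Of the 36, 12 reached an unadjusted p below 0.05 for that difference with the block and 1 without it, against 7.86% and 3.38% of all genes.

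The median difference of the 36 genes with calcitriol was -0.02 in wild type, against -0.03 over all genes, and -0.01 in knockout, against 0.03 over all genes. In wild type 18 of the 36 lay above 0, against 43.4% of all genes, and the differences ran from -1.50 to 1.33. In knockout 16 lay above 0, against 55.3% of all genes, and they ran from -0.27 to 0.99. The groups did not overlap for 6 of 36 genes in wild type, 3 higher and 3 lower, against 9.2% of all genes (4.8% higher, 4.4% lower). In knockout this held for 1 gene, which was higher, against 7.55% of all genes (5.95% higher). In wild type 14 of the 36 were lower in all 3 mice, against 18.8% of all genes, and 7 were higher in all 3, against 14.8%. With the median of each array as the reference these counts were 3 lower and 8 higher, against 4.14% and 27% of all genes, so the direction of the set as a whole depends on the scaling. That scaling moved the wild-type median of all genes from -0.03 to 0.48, and negative wild-type differences smaller than this shift, such as those of Aqp4, Kcnn4 and Ceacam20, turn positive with it. The shift is common to all genes, and 18 of the 36 lay above the all-gene median under both scalings. In knockout 4 of the 36 were higher and 6 lower in all 3 mice, against 14.8% and 13.6% of all genes. For the difference of effects, 16 lay above 0, against 40.9% of all genes.

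**Figure D1:**
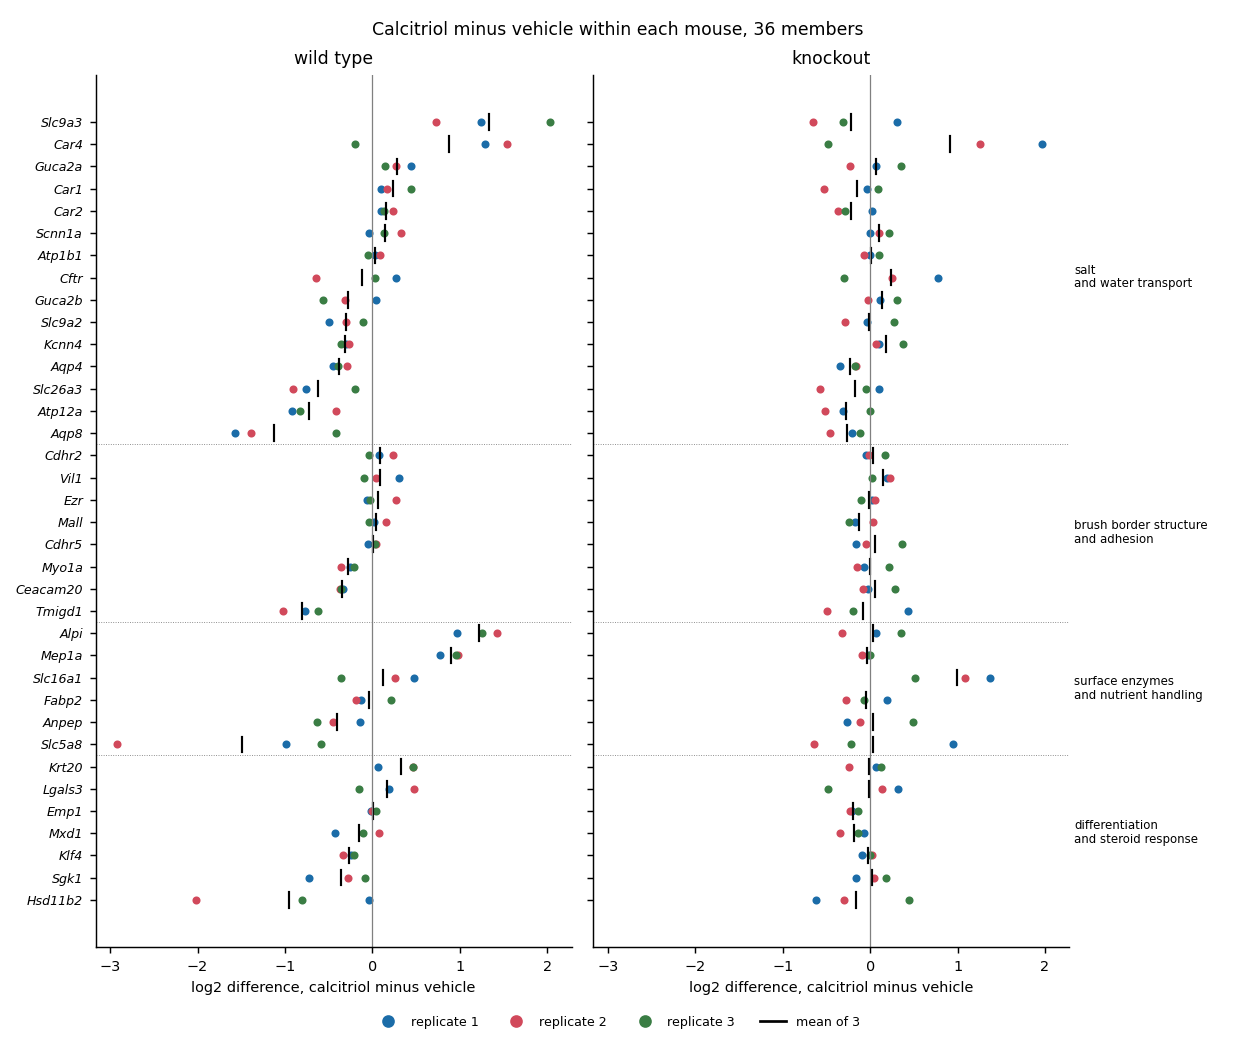
Calcitriol minus vehicle in each mouse (log2 scale, horizontal axis) for the 36 tested genes grouped by role, with wild type on the left and knockout on the right; points are single mice and the black bar is their mean. In wild type Alpi and Mep1a lie to the right in all 3 mice and Aqp8 to the left in all 3, while in knockout the mean bars of both enzymes lie near 0, at 0.04 and -0.04.

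Among the surface enzymes, Mep1a encodes the alpha subunit of meprin, a metalloprotease of the brush border. In wild-type vehicle its level was 2.82, 1.68 and 2.49 in mice 1, 2 and 3. In wild-type calcitriol it was 3.60, 2.66 and 3.44 in the same mice. In knockout it was 2.74, 1.70 and 2.55 with vehicle and 2.72, 1.61 and 2.54 with calcitriol. The treated and untreated wild-type groups overlap, because mouse 2 was low with both, while each treated culture lay above the untreated culture of its own mouse by 0.77, 0.98 and 0.95. The mean rise was 0.90, a fold of 1.87, with a standard error of 0.39 and an adjusted p of 0.986 without the block and a standard error of 0.076 and an adjusted p of 0.00192 with it. In knockout the difference was -0.04 (block adjusted p = 0.871). The wild-type minus knockout difference of these effects was 0.94, with adjusted p = 1 without the block and 0.0197 with it.

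Alpi encodes intestinal alkaline phosphatase, which removes phosphate from lipids and bacterial endotoxin at the surface. Its level in wild type was -0.77, -1.23 and -0.39 with vehicle in mice 1, 2 and 3 and 0.20, 0.19 and 0.87 with calcitriol. In knockout it was -0.80, -1.01 and -0.68 with vehicle and -0.73, -1.33 and -0.33 with calcitriol. All 3 wild-type calcitriol arrays lay above the other 9 arrays. The rise in wild type was 1.22, a fold of 2.33, in single mice 0.97, 1.43 and 1.26, with adjusted p = 0.288 without the block and 0.0145 with it. In knockout the difference was 0.04 (block adjusted p = 0.95), and the difference between the genotypes' effects, 1.18, did not pass (adjusted p = 1 without the block and 0.152 with it).

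The calls of both enzymes rest on the block and on few mice. With the block and without 1 wild-type mouse, the adjusted p of Mep1a was 0.0206 to 0.0455 and that of Alpi 0.0745 to 0.163, so the call of Alpi ended without any of mice 1, 2 or 3. The call of Mep1a for the difference of effects ended without any single mouse other than knockout mouse 3 (adjusted p = 0.0241 to 0.158), and with median scaling and the block its adjusted p was 0.0585 in wild type and 0.297 for that difference. With slide as a block in place of the mouse, the differences were 0.95 for Mep1a and 1.25 for Alpi, neither past the threshold. Within the largest slide they were 0.75 and 0.81, from 3 wild-type calcitriol arrays against the vehicle array of mouse 3 alone. Only wild-type mouse 3 had both of its arrays on 1 slide, and it differed by 0.95 for Mep1a and 1.26 for Alpi. In every other mouse the 2 arrays lay on different slides, so the block cannot tell treatment from slide there. The slide with 3 arrays holds wild-type vehicle and knockout calcitriol, and the smallest holds knockout vehicle alone, so neither gives a within-slide value for any of these comparisons.

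**Figure D2:**
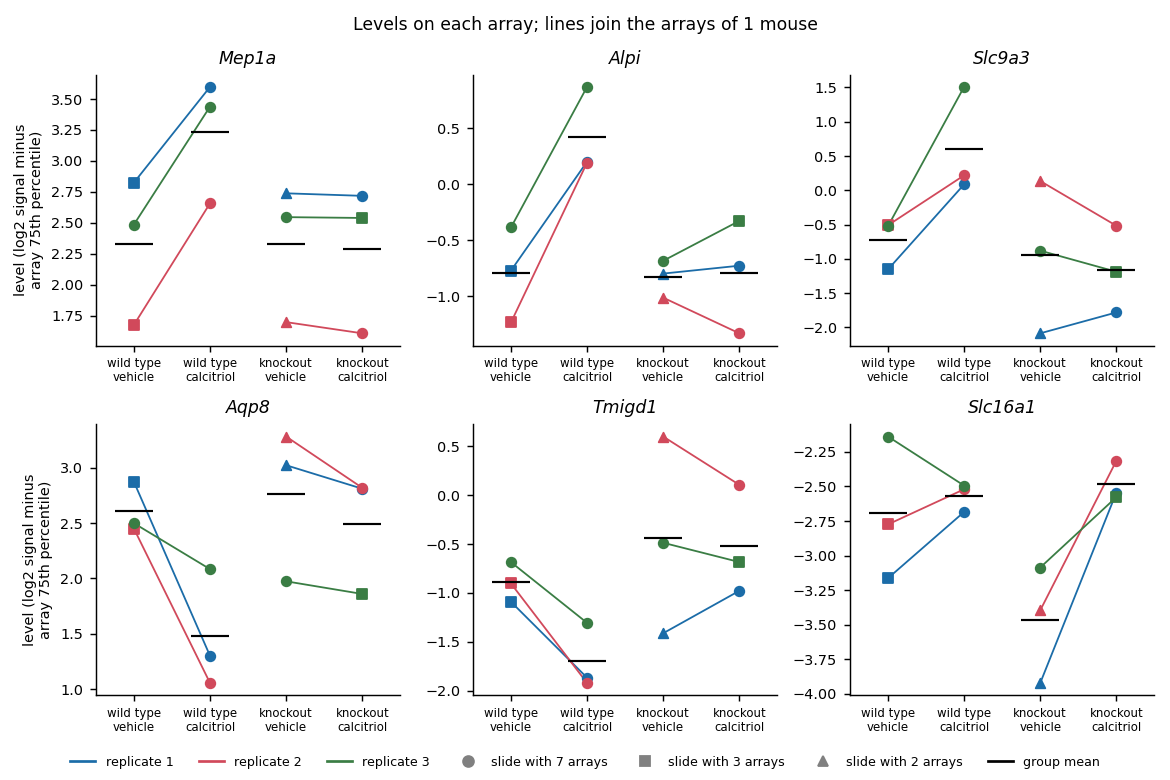
Level (log2 signal minus the 75th percentile of the array, vertical axis) of 6 genes on each of the 12 arrays, by genotype and treatment; lines join the arrays of 1 mouse, colours give the replicate, marker shapes the slide and black bars the group means. All 3 wild-type lines of Mep1a and Alpi climb, by 0.77 to 0.98 and by 0.97 to 1.43, and the knockout lines of Mep1a are nearly level.

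The 250 bases upstream of the start sites of Mep1a and Alpi, the called members, are printed from RefSeq on GRCm38.p6, 5′ to 3′ on the strand of the gene, which is the minus strand for both. Mep1a lies at chr17:43502774-43503023 and Alpi at chr1:87101607-87101856. Capitals mark matches to words searched on both strands. The first was AGGTCA, a nuclear receptor half-site, with AGTTCA as one variant while GGTTCA was the other. The last was CAAAGTCCA, a word bound by HNF4-type receptors.
Mep1a: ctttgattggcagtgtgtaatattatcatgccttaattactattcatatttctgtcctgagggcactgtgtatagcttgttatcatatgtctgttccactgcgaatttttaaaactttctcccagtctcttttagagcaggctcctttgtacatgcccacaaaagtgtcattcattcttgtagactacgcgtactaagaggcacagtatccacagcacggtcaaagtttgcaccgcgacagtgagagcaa
Alpi: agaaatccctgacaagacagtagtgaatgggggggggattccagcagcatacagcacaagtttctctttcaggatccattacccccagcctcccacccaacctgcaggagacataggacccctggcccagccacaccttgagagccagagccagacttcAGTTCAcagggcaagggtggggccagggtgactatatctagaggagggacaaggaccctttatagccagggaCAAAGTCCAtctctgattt
The window of Alpi holds AGTTCA from position -91 and CAAAGTCCA from position -19, counted from the start site, and the window of Mep1a holds none of the 4 words. Of 32851 windows of this length, 14% held AGGTCA, and 11.8% held AGTTCA, with 8.85% for GGTTCA. Any of the 3 was in 30.7% and CAAAGTCCA in 0.384%. Windows were at hand for 34 of the 42 listed genes, and 14 of the 34 had a window with a half-site. Half-sites in the same direction with NNN between them, the spacing typical of the vitamin D receptor, were in 0.0244% of windows and in 0 of the 34 genes. These matches describe letters in the window and no binding.

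The remaining enzymes and carriers of nutrients gave no call in either fit. Slc5a8, a sodium-coupled carrier of butyrate and other monocarboxylates, averaged -3.40 ± 1.29 under vehicle and -4.90 ± 1.07 under calcitriol in the wild-type organoids (SD, n = 3). Its difference of -1.50 was negative in all 3 mice, at -0.98, -2.92 and -0.58 in mice 1, 2 and 3. The vehicle array of mouse 2 differed from the rest at low signal, and with normexp background correction the difference was -0.73. The range of Slc5a8 over the 12 arrays, 3.53, was the second widest of the set. Anpep, an aminopeptidase of the brush border, averaged -2.20 ± 1.00 in wild-type vehicle, and Fabp2, a fatty acid carrier, 1.91 ± 0.56 (SD, n = 3).

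Slc16a1, which carries butyrate and lactate with protons, had the largest difference with calcitriol in knockout. Its level in knockout was -3.92, -3.40 and -3.09 with vehicle and -2.55, -2.31 and -2.58 with calcitriol. In wild type it was -3.16, -2.77 and -2.14 with vehicle and -2.68, -2.52 and -2.49 with calcitriol. The knockout groups did not overlap and the wild-type groups did. The knockout difference was 0.99, by mouse 1.38, 1.08 and 0.51, against 0.13 in wild type, and neither it nor the difference between the genotypes passed (adjusted p = 0.862 and 1, with the block 0.572 and 0.625). The contrast between the genotypes depends on the scaling. The knockout and wild-type differences were 0.70 and 0.64 with median scaling and 0.74 and 0.55 with quantile normalization. With normexp background correction they were 0.53 and -0.05. Both knockout arrays with the lowest levels lay on the smallest slide. Within the largest slide the knockout difference was 0.66, from the calcitriol arrays of mice 1 and 2 against the vehicle array of mouse 3 alone.

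Salt and water transport gave no call in either genotype. Of its 15 tested genes, 7 were higher and 8 lower with calcitriol in wild type, with a median of -0.11, and 8 reached an unadjusted p below 0.05 with the block, where 9.97% of all genes did. In knockout 7 were higher and 8 lower, with a median of -0.02, and 1 of the 15 reached that p, where 8.12% of all genes did.

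Aqp8, a water channel of colonic surface cells, was at 2.87, 2.45 and 2.50 with vehicle in wild type and at 1.30, 1.06 and 2.08 with calcitriol. In knockout it was at 3.02, 3.28 and 1.97 with vehicle and at 2.81, 2.82 and 1.86 with calcitriol. The wild-type groups did not overlap, with mouse 3 the least apart. By mouse the wild-type differences were -1.57, -1.39 and -0.41, and only mouse 3 had both arrays on 1 slide. Replicate 3 was lowest in knockout under both treatments. The difference was -1.13 in wild type and -0.26 in knockout. The first had an adjusted p of 0.885 without the block and 0.057 with it. A second probe for Aqp8, above background on all 12 arrays, gave -1.42 in wild type and -0.49 in knockout. With the block, the wild-type value passed after quantile normalization (adjusted p = 0.0434), after normexp background correction (adjusted p = 0.0348) and without mouse 3 (adjusted p = 0.00518). It did not pass without mouse 1 (adjusted p = 0.314) or mouse 2 (adjusted p = 0.478), with no filter (0.059) or with the mean of both probes (0.0679), and with median scaling the difference was -0.62 (adjusted p = 0.489).

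Slc9a3 encodes the main sodium/hydrogen exchanger of the apical surface. In wild type its level was -1.15, -0.51 and -0.52 with vehicle and 0.09, 0.22 and 1.51 with calcitriol. In knockout it was -2.09, 0.14 and -0.88 with vehicle and -1.78, -0.52 and -1.19 with calcitriol. The wild-type groups did not overlap, and the knockout groups did. The wild-type difference of 1.33 did not pass (adjusted p = 0.986 without the block and 0.0781 with it), nor did the difference of 1.55 from the knockout effect (adjusted p = 1 and 0.295). Only with median scaling and the block together did these pass among the settings run, with adjusted p = 0.000688 and 0.00601. The Slc9a3 probe used here matched a predicted RefSeq transcript. A second probe for Slc9a3, matched to a curated transcript, was above background on 0 arrays. Its differences, -0.68 in wild type and -0.68 in knockout, lie below background. In wild type their sign is opposite to that of the probe used, so no second probe backs the rise.

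Car4, a membrane-bound carbonic anhydrase, differed between the slides. It was at 1.46, 1.41 and 2.97 in wild-type vehicle, at 2.74, 2.95 and 2.76 in wild-type calcitriol, at 1.11, 1.69 and 2.38 in knockout vehicle and at 3.07, 2.95 and 1.89 in knockout calcitriol. The 7 arrays of the largest slide lay between 2.38 and 3.07 and the other 5 between 1.11 and 1.89, without overlap, as for 1 of the 36 genes and 6.46% of all genes. Differences with calcitriol were 0.87 in wild type and 0.91 in knockout, and mouse 3 went the other way in both, at -0.20 and -0.49. Neither passed (adjusted p = 0.986 and 0.862, with the block 0.573 in both). A second Car4 probe was dimmer, between -6.24 and -2.70, and above background on 11 arrays. It gave -1.97 and -0.41, so the probes disagree in direction.

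Car2, a cytosolic carbonic anhydrase, was at 7.82, 7.06 and 7.51 in wild-type vehicle, at 7.92, 7.29 and 7.64 in wild-type calcitriol, at 7.76, 7.54 and 7.83 in knockout vehicle and at 7.79, 7.16 and 7.54 in knockout calcitriol. All groups overlap. Its differences with calcitriol were 0.15 and -0.21 in wild type and knockout.

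The guanylins are peptides that drive chloride and water secretion through a cyclic GMP receptor. Guca2b, uroguanylin, was at 2.47, 1.96 and 2.18 in wild-type vehicle, at 2.50, 1.65 and 1.61 in wild-type calcitriol, at 2.49, 2.54 and 2.51 in knockout vehicle and at 2.60, 2.51 and 2.82 in knockout calcitriol. The knockout arrays lay above the wild-type arrays under both treatments, by a narrow margin in each. Guca2a, guanylin, averaged 3.88 ± 0.10 (SD, n = 3) under vehicle and 4.16 ± 0.22 under calcitriol in the wild-type organoids, with no overlap. Its difference of 0.28 had an adjusted p of 0.992 without the block and 0.48 with it.

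The other transport genes are given by their level in wild-type vehicle and their wild-type difference. Car1, a carbonic anhydrase, averaged 7.35 ± 0.20 (difference 0.24), and Slc26a3, the chloride/bicarbonate exchanger, 1.42 ± 0.26 (difference -0.62, lower in 3 of 3 mice). Aqp4, a basolateral water channel, averaged 4.40 ± 0.56 (difference -0.38, lower in 3 of 3 mice), and Slc9a2, a sodium/hydrogen exchanger, 1.28 ± 0.32 (difference -0.30, lower in 3 of 3 mice). Scnn1a, the sodium channel subunit that was measured on all arrays, averaged 2.50 ± 0.55 (difference 0.14). None of these 5 passed in either fit. Atp1b1, the beta subunit of the sodium pump, averaged 6.40 ± 0.27 (difference 0.02), and Atp12a, the colonic proton/potassium pump, 0.88 ± 1.04 (difference -0.72, lower in 3 of 3 mice, block adjusted p = 0.0689). Cftr, the chloride channel, averaged -1.68 ± 0.86 (difference -0.11), and Kcnn4, a calcium-activated potassium channel, 3.05 ± 0.39 (difference -0.31). These 4 did not pass either.

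Brush border structure and adhesion genes lay in a narrower band. Of 8 tested, 5 were higher and 3 lower with calcitriol in wild type, with a median of 0.03 and a range of -0.81 to 0.09. In knockout 4 were higher and 4 lower, with a median of 0.02 and a range of -0.13 to 0.15. None passed in either fit. Tmigd1, an adhesion protein of the epithelial surface, lay outside the others. It was at -1.09, -0.90 and -0.68 in wild-type vehicle, at -1.87, -1.92 and -1.31 in wild-type calcitriol, at -1.41, 0.60 and -0.49 in knockout vehicle and at -0.98, 0.11 and -0.68 in knockout calcitriol. The wild-type groups did not overlap, and the wild-type difference of -0.81 did not pass (adjusted p = 0.986 without the block and 0.138 with it).

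Mall, a membrane-raft protein of the MAL family, was at 3.41, 3.38 and 3.71 in wild-type vehicle, at 3.42, 3.54 and 3.67 in wild-type calcitriol, at 3.67, 3.56 and 4.14 in knockout vehicle and at 3.50, 3.59 and 3.90 in knockout calcitriol. All groups overlap. The cadherins that link microvilli averaged 6.04 ± 0.07 for Cdhr2 and 3.99 ± 0.20 for Cdhr5 in wild-type vehicle (SD, n = 3), with wild-type differences of 0.09 and 0.01. Villin (Vil1), an actin bundler, averaged 5.82 ± 0.39, ezrin (Ezr), which ties actin to the membrane, 6.04 ± 0.17, and the motor Myo1a 4.06 ± 0.35. Their wild-type differences were 0.08, 0.06 and -0.27. Ceacam20, an adhesion protein of microvilli, averaged 2.47 ± 0.50 and differed by -0.35, lower in 3 of 3 mice (block adjusted p = 0.182).

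Differentiation and steroid response genes also gave no call. Of 7 tested, 3 were higher and 4 lower in wild type, with a median of -0.16, and 1 was higher and 6 lower in knockout, with a median of -0.03. Hsd11b2, the enzyme that inactivates glucocorticoids and so protects the mineralocorticoid receptor, was at -4.33, -2.73 and -3.73 in wild-type vehicle, at -4.37, -4.75 and -4.54 in wild-type calcitriol, at -3.60, -4.30 and -3.85 in knockout vehicle and at -4.22, -4.59 and -3.40 in knockout calcitriol. The wild-type groups did not overlap. The difference was -0.04 in mouse 1, -2.02 in mouse 2, whose vehicle array differed from the rest at low signal, and -0.81 in mouse 3. Its mean of -0.96 did not pass (adjusted p = 0.986 without the block and 0.526 with it), and without the vehicle array of mouse 2 it was -0.52.

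Emp1, an epithelial membrane protein of surface cells, was at 6.65, 7.18 and 7.07 in wild-type vehicle, at 6.63, 7.17 and 7.10 in wild-type calcitriol, at 6.95, 7.53 and 7.37 in knockout vehicle and at 6.74, 7.30 and 7.23 in knockout calcitriol. Mxd1, a MYC antagonist of differentiating cells, was at 3.82, 4.03 and 3.60 in wild-type vehicle, at 3.39, 4.10 and 3.48 in wild-type calcitriol, at 3.85, 4.45 and 4.18 in knockout vehicle and at 3.77, 4.10 and 4.05 in knockout calcitriol. For both, all groups overlap. Wild-type vehicle averaged 4.17 ± 0.06 for the keratin Krt20, 7.69 ± 0.33 for the lectin Lgals3, 0.90 ± 0.52 for the steroid-induced kinase Sgk1 and 3.89 ± 0.13 for the transcription factor Klf4 (SD, n = 3). Their wild-type differences were 0.33, 0.17, -0.36 and -0.26, and none passed in either fit.

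Knockout was then compared with wild type under each treatment, to ask whether loss of the receptor alters the absorptive genes with or without the hormone. In vehicle, none of the 36 passed with or without the replicate number as a block, where 0.00412% of all genes did in each fit. In vehicle, 8 of the 36 reached an unadjusted p below 0.05 with the block and 1 without it, against 14.6% and 8.67% of all genes. In calcitriol, none passed without the block, where 0.206% of all genes did, and with it 2 of 36 did, both lower in knockout, where 0.499% of all genes did and 0.425% were called lower. In calcitriol, 15 of the 36 reached an unadjusted p below 0.05 with the block and 7 without it, against 8.4% and 2.98% of all genes. The median difference of the 36 was 0.00 in vehicle, against -0.05 over all genes, and 0.07 in calcitriol, against 0.02. In vehicle 18 lay above 0, against 43.4% of all genes, and in calcitriol 24, against 54%. At all 3 replicate numbers 7 were higher and 4 lower in vehicle, against 16.3% and 24.9% of all genes, and 13 higher and 8 lower in calcitriol, against 17.1% and 13%. Each genotype comparison shares its arrays with the treatment comparisons, and the calcitriol one reads the same wild-type calcitriol arrays again.

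The 2 genes lower in calcitriol-treated knockout organoids were again Alpi and Mep1a. Alpi differed by -1.22 (by replicate number -0.93, -1.52 and -1.20), with adjusted p = 0.278 without the block and 0.0361 with it, and the groups did not overlap. Mep1a differed by -0.94 (-0.88, -1.05 and -0.90), with adjusted p = 1 without the block and 0.0118 with it, and the groups overlapped. In vehicle the genotypes differed by -0.03 for Alpi, and the group means of Mep1a were 2.33 in both. With the block and without 1 replicate number, the adjusted p ran from 0.00257 to 0.171 for Alpi and from 0.000408 to 0.0972 for Mep1a. Each call ended without replicate 1 and without replicate 2, and that of Alpi also with quantile normalization (adjusted p = 0.0527). The means of the crypt stem and tuft markers also separated these groups. Of 8 goblet markers, 6 were lower at all 3 replicate numbers, against 13% of all genes. The part of these markers in the result was not tested.

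**Figure D3:**
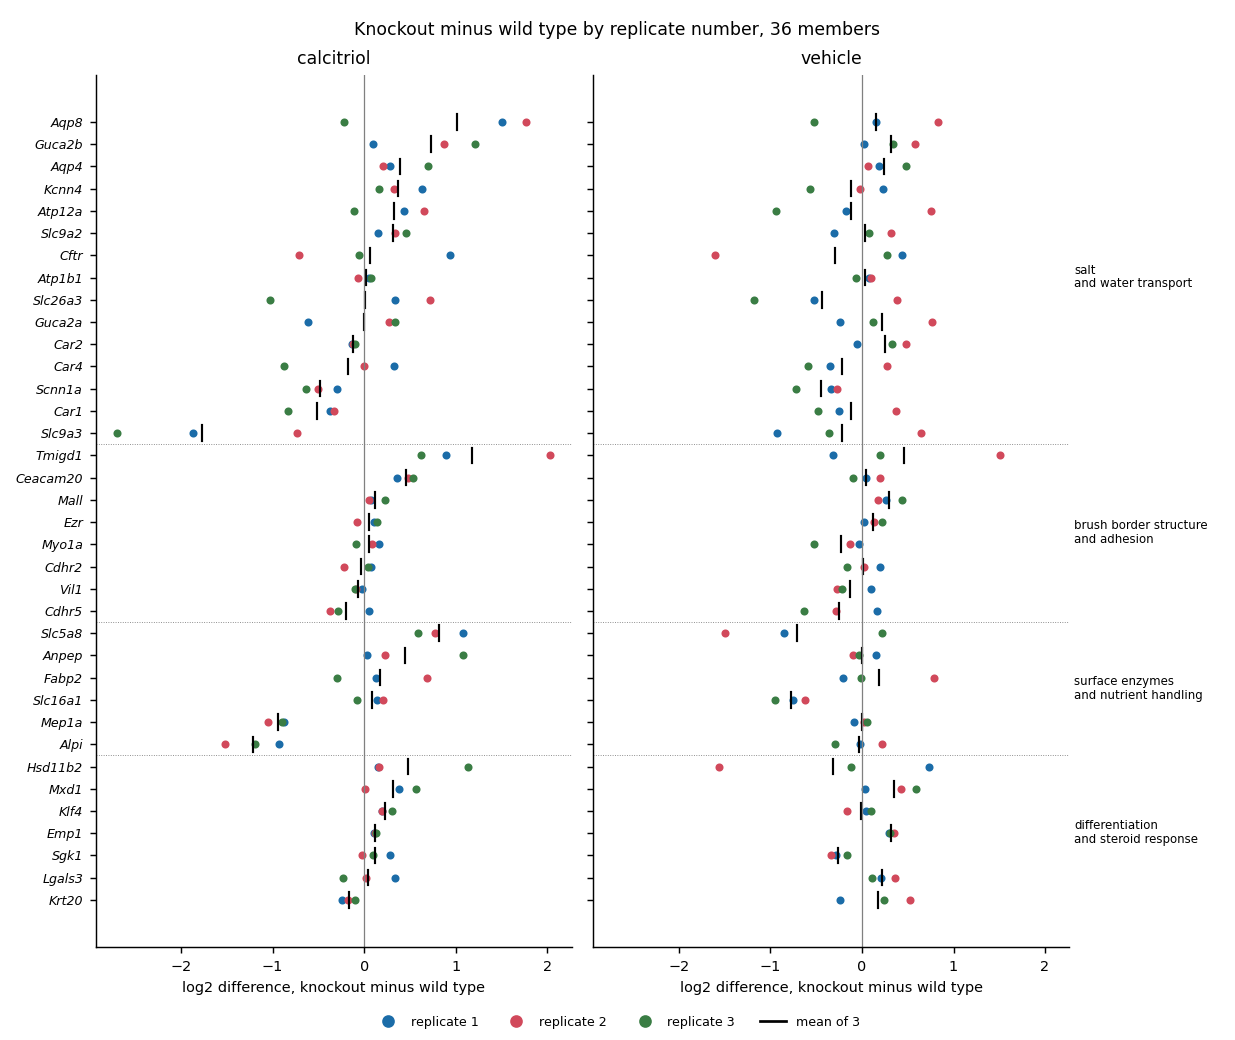
Knockout minus wild type at each replicate number (log2 scale, horizontal axis) for the 36 tested genes by role, in calcitriol on the left and in vehicle on the right; black bars are means. In calcitriol Alpi, Mep1a and Slc9a3 lie to the left at all 3 replicate numbers and Guca2b and Tmigd1 to the right, while in vehicle Alpi and Mep1a lie at about 0.

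Among genes that did not pass, Slc9a3 differed by -1.77 in calcitriol (adjusted p = 0.736 without the block and 0.14 with it), with no overlap. Guca2b differed by 0.73 in calcitriol (adjusted p = 0.736 and 0.346) and by 0.31 in vehicle (0.696 and 0.334). Tmigd1 differed by 1.18 in calcitriol (adjusted p = 1 and 0.24), with no overlap, and Aqp8 by 1.02 (adjusted p = 1 and 0.518), with overlap. Tmigd1 was higher at all 3 replicate numbers, and Aqp8 at 2 of 3. Car1, which differed by -0.51 in calcitriol, completed the 5 of 36 genes whose calcitriol groups did not overlap (Guca2b and Tmigd1 higher, Alpi, Slc9a3 and Car1 lower), against 7.61% of all genes (3.99% higher, 3.63% lower). Without replicate 3, the block gave 6 calls among the 36 and 475 among all genes, and Slc9a3, Aqp8 and Tmigd1 were among the 6 (adjusted p = 0.0124, 1.09e-05 and 0.0087).

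In vehicle, the 5 smallest p-values of the set belonged to Slc16a1 (-0.78), Mall (0.29), Mxd1 (0.35), Emp1 (0.32) and Guca2b (0.31). Their adjusted p ran from 0.565 to 0.696 without the block and from 0.311 to 0.334 with it. Slc16a1 was lower and the other 4 were higher at all 3 replicate numbers. With the median of each array as the reference all 36 genes lay above 0 in vehicle, Slc16a1 at 0.0046, because the median of all genes moved from -0.05 to 0.73. Slc16a1 lay below that median under both scalings, and 21 of the 36 lay above it under both. With quantile normalization Slc16a1 differed by -0.07, where the median of all genes was 0.03, and with normexp background correction by -0.43. Guca2b was the gene of the 36 whose vehicle groups did not overlap, against 8.42% of all genes (2.87% higher).

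Roles were set side by side by the mean deviation of their genes from their 12-array means. It ran from -0.21 to 0.21 over the arrays for salt and water transport, from -0.22 to 0.18 for brush border genes, from -0.39 to 0.36 for enzymes and nutrient handling, and from -0.25 to 0.19 for differentiation genes. The lowest value of the brush border genes and of the differentiation genes lay on the calcitriol array of wild-type mouse 1. Within roles signs were mixed: Alpi and Mep1a rose in wild type where Slc5a8 differed by -1.50, and Slc9a3 differed by 1.33 where Aqp8 differed by -1.13. The median standard deviation within groups was 0.37 for the 36 genes and 0.32 for all genes, and the median range over the arrays 1.33 and 1.03. A range under 1 was found for 13 genes, with Cdhr2 at 0.50 and Ezr at 0.52, and one of at least 2 for 8, with Slc9a3 widest at 3.59.

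Differences between replicate numbers were wide in this set. For 11 of the 36 genes the 4 arrays of replicate 1 did not overlap the other 8, against 12.8% of all genes. Aqp4, Scnn1a, Atp1b1, Anpep and Sgk1 were higher in replicate 1 under both genotypes and treatments, and Slc9a2, Vil1, Myo1a, Fabp2, Krt20 and Emp1 were lower. Scnn1a, for example, lay between 2.80 and 3.13 in replicate 1 and between 1.39 and 2.59 on the others. Fabp2 lay between 1.12 and 1.33 in replicate 1 and between 1.79 and 2.76 on the others. Replicate 3 stood apart for 5 genes, against 3.27% of all genes: Atp12a, Cdhr2, Ezr and Anpep were lower and Mall was higher. Replicate 2 stood apart for Ceacam20, which was lower, against 5.53% of all genes. A replicate number joins different mice across genotypes. Replicates 1 and 3 share an age label, and the sex labels of replicates 1 and 2 go against the data. In replicate 2, age by label and sex by Ddx3y cannot be told apart from other things its cultures share. What sets replicates 1 and 3 apart was not tested.

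**Figure D4:**
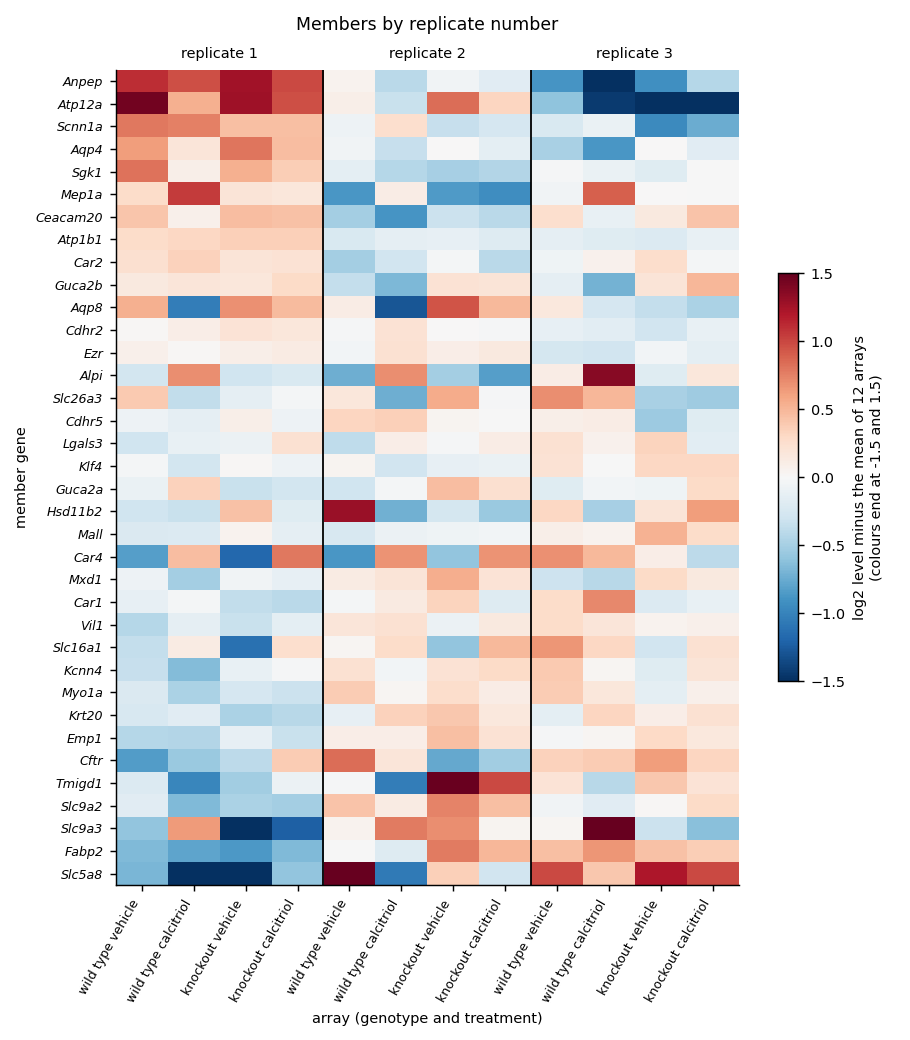
Deviation of each of the 36 tested genes from its mean over the 12 arrays (log2 scale, colour; colours end at -1.5 and 1.5), with arrays in columns ordered by replicate number and then by genotype and treatment. The columns of replicate 1 share high values for Scnn1a, Aqp4 and Anpep and low values for Fabp2 and Slc9a2.

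A wider list of 48 genes of the same processes, 47 of them tested, covered 26 transport genes, brush border genes and regulators such as Hnf4a and Cdx2. None passed without the block in any of the 5 comparisons. With it none passed other than Treh, the trehalose-splitting enzyme of the brush border, whose value is given as a description. Treh was at -2.07, -3.60 and -3.18 in wild-type calcitriol and at -3.80, -5.76 and -5.78 in knockout calcitriol, a difference of -2.16 (adjusted p = 1 without the block and 0.0385 with it). It was above background on 3 of 3 wild-type calcitriol arrays and on 1 of 3 in each other group, so it was tested only because of the group in which it was high, and nothing is read from its adjusted p.

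The other related genes are values that did not pass. With calcitriol in wild type, the sulfate carrier Slc26a2 differed by -0.54, the water channel Aqp1 by -0.90 and the bicarbonate carrier Slc4a7 by 0.28 (adjusted p = 0.986 for each, with the block 0.206, 0.128 and 0.187). In knockout the smallest p-values were those of Aqp7 (0.57), Eps8 (-0.31) and Myo7b (0.21). The differences of effects with the smallest p-values were Slc4a7 (0.41), Nedd4l (0.41), the ubiquitin ligase that removes the sodium channel, and Eps8 (0.40). In vehicle, knockout differed from wild type most by p for Nedd4l (0.28), the bicarbonate carrier Slc4a4 (0.61) and the glucocorticoid receptor gene Nr3c1 (0.30). With calcitriol in wild type 26 of the 47 lay above 0, with a median of 0.01, and in knockout 18, with a median of -0.04.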

How the data were processed

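The files hold linear spot intensities that the authors extracted with Agilent Feature Extraction 11.5.1.1, per the file headers. The processed intensity is background-subtracted and not normalized between arrays. The submitters' statistics are not given in the sources used here. Separate mice stand behind the 3 replicates of a genotype, per the labels. Without control and outlier spots, a level is log2 of the deposited processed intensity, less that array's 75th percentile, averaged over the spots of a probe. Accessions were matched to RefSeq names on GRCm38.p6, which named 28026 of 55681 probes. After 163 probes with missing values were dropped, 33429 probes were kept that were well above background in every array of some group (3 each), and the brightest stood for its gene, giving 24263 genes, 14923 of them with a symbol.

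All genes were fitted with limma 3.58.1 in R 4.3.3 (4 group means on 12 arrays, variance trend, 2-sided tests, Benjamini-Hochberg adjustment over 24263 genes, threshold 0.05). The replicate number was added as a block, the mouse within a genotype for treatment effects. Vehicle and calcitriol arrays of a number come from 1 mouse per the labels, and their deviations from group means correlated at 0.57, 0.32 and 0.32 in wild type and at 0.25, 0.59 and 0.10 in knockout. Between genotypes they correlated at 0.13 to 0.64. Both fits were tested on simulated data with a mouse effect and no slide effect, so the overlap of slide and treatment was not examined there. For calcitriol in wild type, 52% of log2 changes of 1 were recovered without the block and 59% with it. For changes of 2 it was 66% and 69%. False calls were 1 of 119 without the block and 2 of 130 with it. Levels are given for every gene of the set, and for every array for genes called by either fit or among the 5 smallest p-values of a comparison, with up to 3 related genes per comparison where none was called. The members and lists were chosen with earlier results of these data known. Alternatives were slide as a block or the largest slide alone, median or quantile scaling, normexp with an offset of 50, no filter, the mean of all probes, only the 6 arrays compared, and leaving out arrays. Array number, 3 per group, limits the precision. Promoter words were searched by exact match on both strands.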

Additional observations from a re-analysis of the deposited data

Results flagged for a closer look

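Listed here are genes whose calcitriol effects passed a test of the difference between the genotypes, or were of opposite sign in all 3 mice of each genotype. They were 2, Mep1a and Kcnn4. Other genes had differences of effects larger in size than that of Kcnn4 without meeting either condition. They were Slc9a3 (1.55), Slc5a8 (-1.53), Alpi (1.18), Aqp8 (-0.86), Slc16a1 (-0.86), Hsd11b2 (-0.80) and Tmigd1 (-0.72). Mep1a rose in wild type and not in knockout, a difference of effects of 0.94, and the test of that difference passed with the replicate block (adjusted p = 0.0197) and not without it (adjusted p = 1). The potassium channel gene Kcnn4 was lower with calcitriol in all 3 wild-type mice (-0.30, -0.27 and -0.36) and higher in all 3 knockout mice (0.10, 0.07 and 0.37). Its difference of effects, -0.49, did not pass (adjusted p = 1 without the block and 0.303 with it), and with median scaling both directions turn, to 0.20 in wild type and -0.11 in knockout. No group is large enough for a search for single outlying arrays, since each holds 3.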

How the results depend on the processing

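Without the replicate block no setting and no left-out array gave a call among the 36 genes in any of the 5 comparisons. With the block the calls were 2 with calcitriol in wild type, 1 for the difference of effects and 2 for the genotypes in calcitriol, and it changed no other call among them. Over all genes the block took the calls from 37 to 222, from 7 to 57 and from 50 to 121 in these comparisons. With the block and quantile normalization, both chosen together after seeing the data like all combinations with the block, they were 4 in wild type and 1 for the genotypes in calcitriol. Calls over all genes in that setting are not given here. Leaving out 1 mouse or replicate number with the block gave 1 to 2 calls in wild type, 0 to 1 for the difference and 0 to 6 for the genotypes in calcitriol. Over all genes the same fits gave 45 to 84, 21 to 62 and 50 to 475 calls. The knockout difference of Slc16a1 in vehicle reversed to 0.0046 with median scaling, in both fits, by the shift common to all genes. It also shrank to -0.07 with quantile normalization and to -0.43 with normexp. The all-gene medians there were 0.03 and -0.05, so that loss is not the common shift. Median scaling moved the median of all genes to 0.48 with calcitriol in wild type, -0.26 in knockout, 0.74 for the difference and 0.73 for the genotypes in vehicle, and the cause of these shifts was not tested. Of the values under alternatives other than leaving out a sample, 344 held the direction and the side of the threshold, 10 came to pass, 3 ceased to pass and 2 reversed. Depth cannot be read from intensities. Signal near background limits the 5 untested genes.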
